A study of Mus musculus with 12 samples.

Results

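The Hsp70, Hsp90 and small heat shock protein genes and the genes of their DnaJ partners were followed across the cell classes of mouse motor cortex and between control and trained mice. Genes were chosen by symbol alone: Hspa, Hspb, Hsph, Dnaja, Dnajb or Dnajc followed by a digit, or a symbol starting with Hsp90, with at least 100 unique molecular identifiers (UMIs, 1 per captured RNA molecule) in the deposited matrix. Of 31053 genes in the matrix, 70 had such a symbol and 62 met the minimum. The 8 left out included Dnajb7 with 74 UMIs and Hspb9 with 8, while Hspb2 with 130 and Dnajb3 with 142 lay just inside. The 62 genes were 13 Hspa, 1 Hsph, 3 Hsp90, 6 Hspb, 4 Dnaja, 10 Dnajb and 25 Dnajc genes. Nuclei were isolated from the motor cortex field that moves the opposite forelimb (caudal forelimb area, right hemisphere) of 6 mice aged 13 weeks. All 6 mice were limited to 1 mL of water a day, also over the first 10 days that both groups spent in the home cage. On days 11 to 13 the 3 control mice (1, 3 and 5) stayed on this regime. The 3 trained mice (2, 4 and 6) earned 0.3 to 0.8 mL of that water by pressing a lever with the left paw under head fixation, in daily sessions of 100 trials. Strain and any genetic modification were not given in the sources used here, and 1 area of 1 hemisphere was sampled in each mouse.

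Chaperones of the Hsp70 family bind exposed hydrophobic stretches of unfolded proteins and release them in a cycle driven by ATP. DnaJ proteins, which share the J domain that stimulates the ATPase of Hsp70, choose the client and the place of work, from the cytosol and the synaptic vesicle to the endoplasmic reticulum (ER) and the mitochondrion, and Hsph and Hspa4 type proteins exchange the nucleotide. Hsp90 matures kinases and steroid receptors, and small heat shock proteins hold unfolded proteins without ATP. Under proteotoxic stress the factor HSF1 switches on inducible members such as Hspa1a, Hspa1b, Hspb1 and Dnajb1, while ER stress switches on Hspa5 and its partners. Neurons depend in addition on auxilin (Dnajc6), which with Hspa8 strips clathrin from endocytosed vesicles, and on cysteine string protein (Dnajc5), which guards SNARE proteins at the terminal.

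The matrix held 51926 barcodes and 402280889 UMIs, and 49243 nuclei were kept after filters on genes, mitochondrial RNA and doublets (5261 to 11803 per mouse, median 5212 to 7205 UMIs per nucleus). Of the barcode sequences, 311 (0.603%) occurred in more than 1 mouse. Classes were named by clustering on genes other than the chaperones and by marker genes, so each class name stands for nuclei like that type. Glutamatergic neurons held 50.4% of the nuclei and 74.2% of the UMIs. GABAergic neurons (5963 nuclei), astrocytes (6058), oligodendrocytes (6026), oligodendrocyte precursors (1270), microglia and macrophages (2655), endothelial cells (291), pericytes and smooth muscle (677) and vascular and leptomeningeal cells (661) made up the other broad classes. Mean levels below are CPM, that is, UMIs summed per mouse and class as a share of a library total scaled by the trimmed mean of M values (TMM). Because RNA came from nuclei, the values describe nuclear transcripts and not protein. Slc17a7, the vesicular glutamate transporter gene of glutamatergic neurons, reached 212 to 295 CPM of all UMIs in those neurons over the 6 mice, 86.4 to 112 in oligodendrocytes, 40.2 to 81.5 in astrocytes and 85.0 to 211 in endothelial nuclei. The part of neuronal RNA in the values of other classes was not tested.

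Levels of many chaperone genes differed between cell classes, and the direction depended on the gene. Each of 8 broad classes was compared with glutamatergic neurons over the 6 mice, with the mouse as a block, by the quasi-likelihood test of edgeR against a minimum fold of 2 (glmTreat), with p-values adjusted by Benjamini-Hochberg. Of the 62 genes, 57 had enough counts to be tested, which gave 456 gene and class pairs. In 42 pairs the class was higher than glutamatergic neurons, against 14.5% of all pairs tested over 13291 genes, and in 35 pairs it was lower, against 15.5%. Both member shares were below the background, and the classes differed in which members they held. Without TMM scaling the split of chaperone calls moved from 42 and 35 to 95 higher and 20 lower. Over all genes it moved from 15367 and 16446 to 22031 and 11522 of 106328 pairs. The median of all genes moved by 0.172 to 0.69 on the log2 scale depending on the class. The balance of chaperone calls turned in microglia and macrophages, from 2 higher and 6 lower to 15 and 3, and in astrocytes, from 4 and 5 to 8 and 4. The balance over all genes turned there too. It went from 2402 and 2704 to 3988 and 1830 in microglia and macrophages, and from 2276 and 2320 to 2613 and 2070 in astrocytes. Of the named class differences, 46 were followed through 12 other settings, and none of these reversed. Of the 57 genes, 27 were called in at least 1 class: 18 higher only, 8 lower only, and Hspb3 in both directions. Calls per family were 14 higher and 7 lower for Hspa, 13 and 3 for Hspb, 4 and 0 for Hsp90, 8 and 9 for Dnajb, and 3 and 16 for Dnajc. Few genes carried these counts: of the 16 lower Dnajc calls 8 were of Dnajc21 and 6 of Dnajc6, and of the 13 higher Hspb calls 5 were of Hspb1 and 5 of Hspb8.

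**Figure D1:**
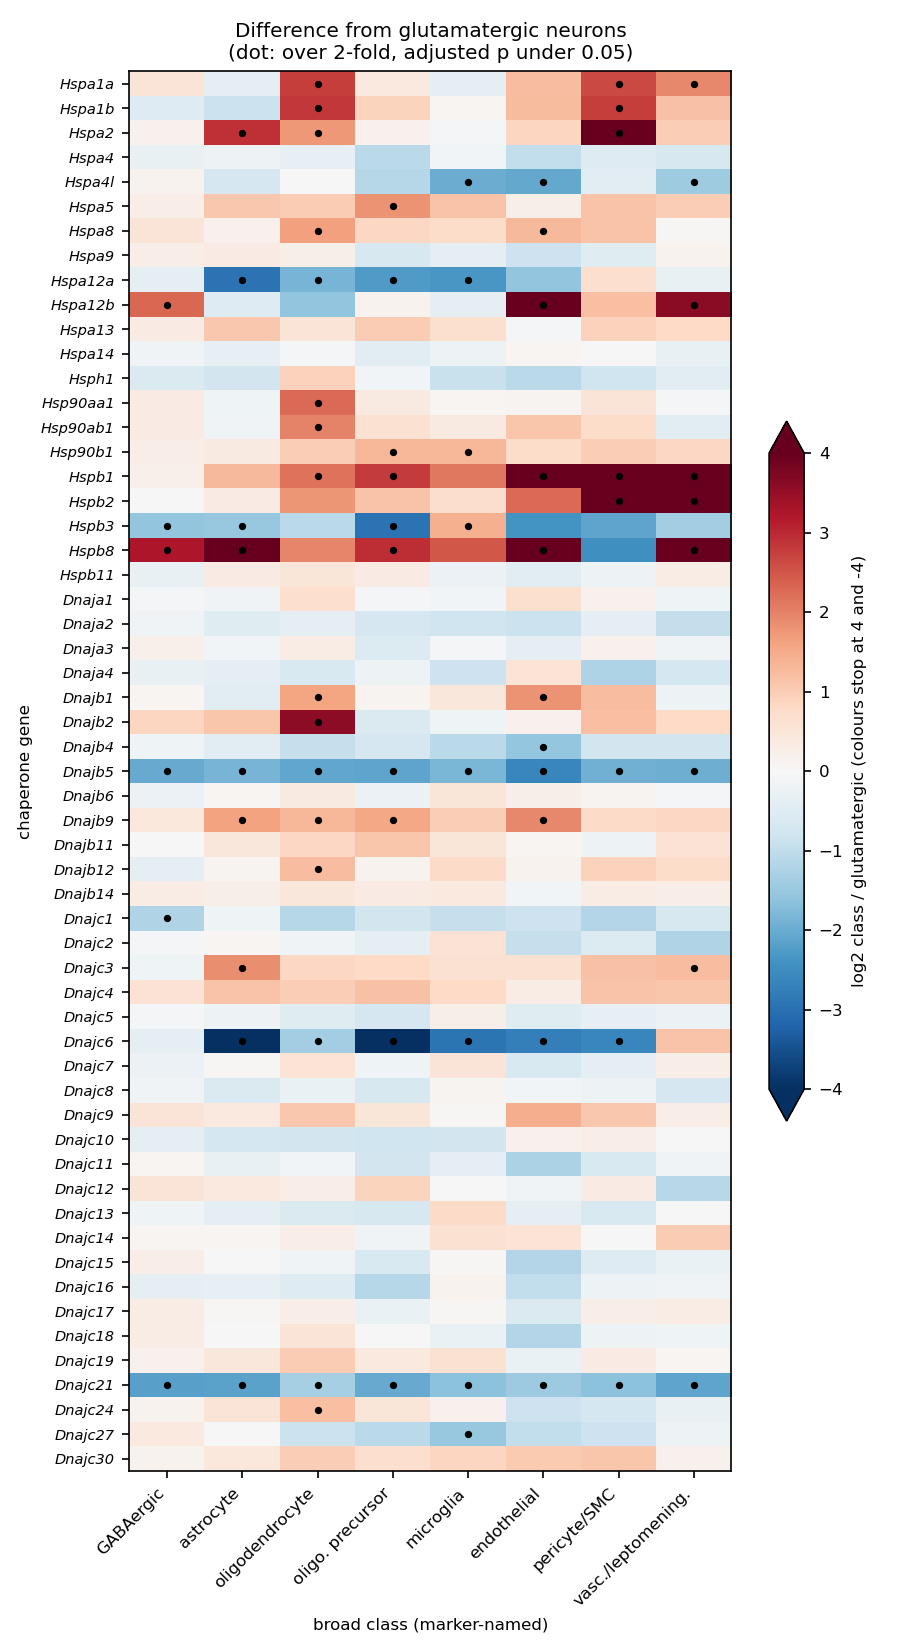
Log2 difference of each of 8 broad classes (columns) from glutamatergic neurons for the 57 tested chaperone genes (rows, by family), red higher and blue lower, with dots at the 42 higher and 35 lower calls. The small heat shock genes are dark red in vascular columns, and Dnajb5 and Dnajc21 are blue with a dot in all 8 columns.

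Vascular nuclei carried the widest differences. Endothelial nuclei had 6 members higher and 5 lower (background 14.3% and 15.8% of all genes), pericytes and smooth muscle 5 and 3 (14.1% and 15.0%), and vascular and leptomeningeal nuclei 6 and 3 (15.0% and 15.4%). Hspb1 (Hsp27; chr5:135887919-135889563, plus strand, mm10), a small heat shock protein that also acts on actin filaments, had lowest, median and highest values of 564, 699 and 1196 CPM over the 6 mice in endothelial nuclei. In pericytes and smooth muscle it had 182, 348 and 488 CPM, and in vascular and leptomeningeal nuclei 20.1, 51.0 and 82.1 CPM. Glutamatergic neurons had 0.107 to 0.374 CPM, so each mouse's 3 vascular values lay above every neuronal value. The log2 differences were 11.57 (SE 0.173, adjusted p = 4.53e-56), 10.38 (SE 0.192, adjusted p = 1.36e-50) and 7.83 (SE 0.348, adjusted p = 6.7e-29) in these 3 classes. Endothelial nuclei held 47.8% of the Hspb1 UMIs of all kept nuclei while holding 0.204% of all UMIs. Hspb1 was also called higher in oligodendrocytes and their precursors, but there its means were 1.11 and 1.74 CPM with 0 in at least 1 mouse.

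Hspa12b (chr2:131127280-131146321, plus strand), a divergent Hsp70 relative known from endothelium, had lowest, median and highest values of 147, 202 and 347 CPM in endothelial nuclei against 0.854 to 1.46 in glutamatergic neurons (log2 difference 7.68, SE 0.205, adjusted p = 7.5e-41). GABAergic neurons, at 5.69 ± 0.628 CPM (SD, n = 6 mice), also stood above glutamatergic neurons in every mouse (log2 difference 2.28, SE 0.171, adjusted p = 1.09e-10), and vascular and leptomeningeal nuclei had a mean of 13.7 CPM (log2 difference 3.62). Its annotated span overlaps the gene model Gm11037 on the same strand, so reads shared by both are uncertain. Hspa2 (chr12:76404176-76406938, plus strand), an Hsp70 best known from spermatogenesis, was highest in pericytes and smooth muscle, with lowest, median and highest values of 108, 124 and 143 CPM (log2 difference 5.07, SE 0.185, adjusted p = 4.3e-32). Astrocytes followed at 27.1 ± 3.92 CPM (log2 difference 2.91, SE 0.12, adjusted p = 4.14e-25) and oligodendrocytes at 12.0 ± 2.85 CPM (log2 difference 1.73). In glutamatergic neurons Hspa2 was 3.58 ± 1.04 CPM, below all 6 astrocyte values.

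Hspb8 (Hsp22), which works with the cochaperone Bag3 in selective autophagy, was 10.7 to 23.6 CPM in vascular and leptomeningeal nuclei and 7.06 to 12.3 CPM in astrocytes. Glutamatergic neurons had 0.0355 to 0.23 CPM. The astrocyte difference was 6.20 on the log2 scale (SE 0.289, adjusted p = 9.02e-26) and the vascular and leptomeningeal difference 7.05 (SE 0.516). Endothelial nuclei were uneven, with 0 in trained mice 2 and 6 and 24.9 to 30.4 CPM in the other 4 mice (log2 difference 7.25, SE 0.663, adjusted p = 1.05e-13), in the class with the fewest nuclei. GABAergic neurons had a mean of 1.16 CPM (log2 difference 3.22). Hspb2, a small heat shock protein of muscle, was 4.47 to 29.9 CPM in pericytes and smooth muscle (log2 difference 6.23, SE 0.561, adjusted p = 4.94e-14) and 0 to 15.5 in vascular and leptomeningeal nuclei (log2 difference 5.04). It lies opposite Cryab, and the use of strand in the authors' counting is not given in the sources used here. Cryab itself, a small heat shock gene whose symbol is outside the chosen names, was higher in pericytes and smooth muscle by 2.66. Bag3, the partner of Hspb8, was higher by 6.76 in astrocytes and 6.73 in endothelial nuclei.

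**Figure D2:**
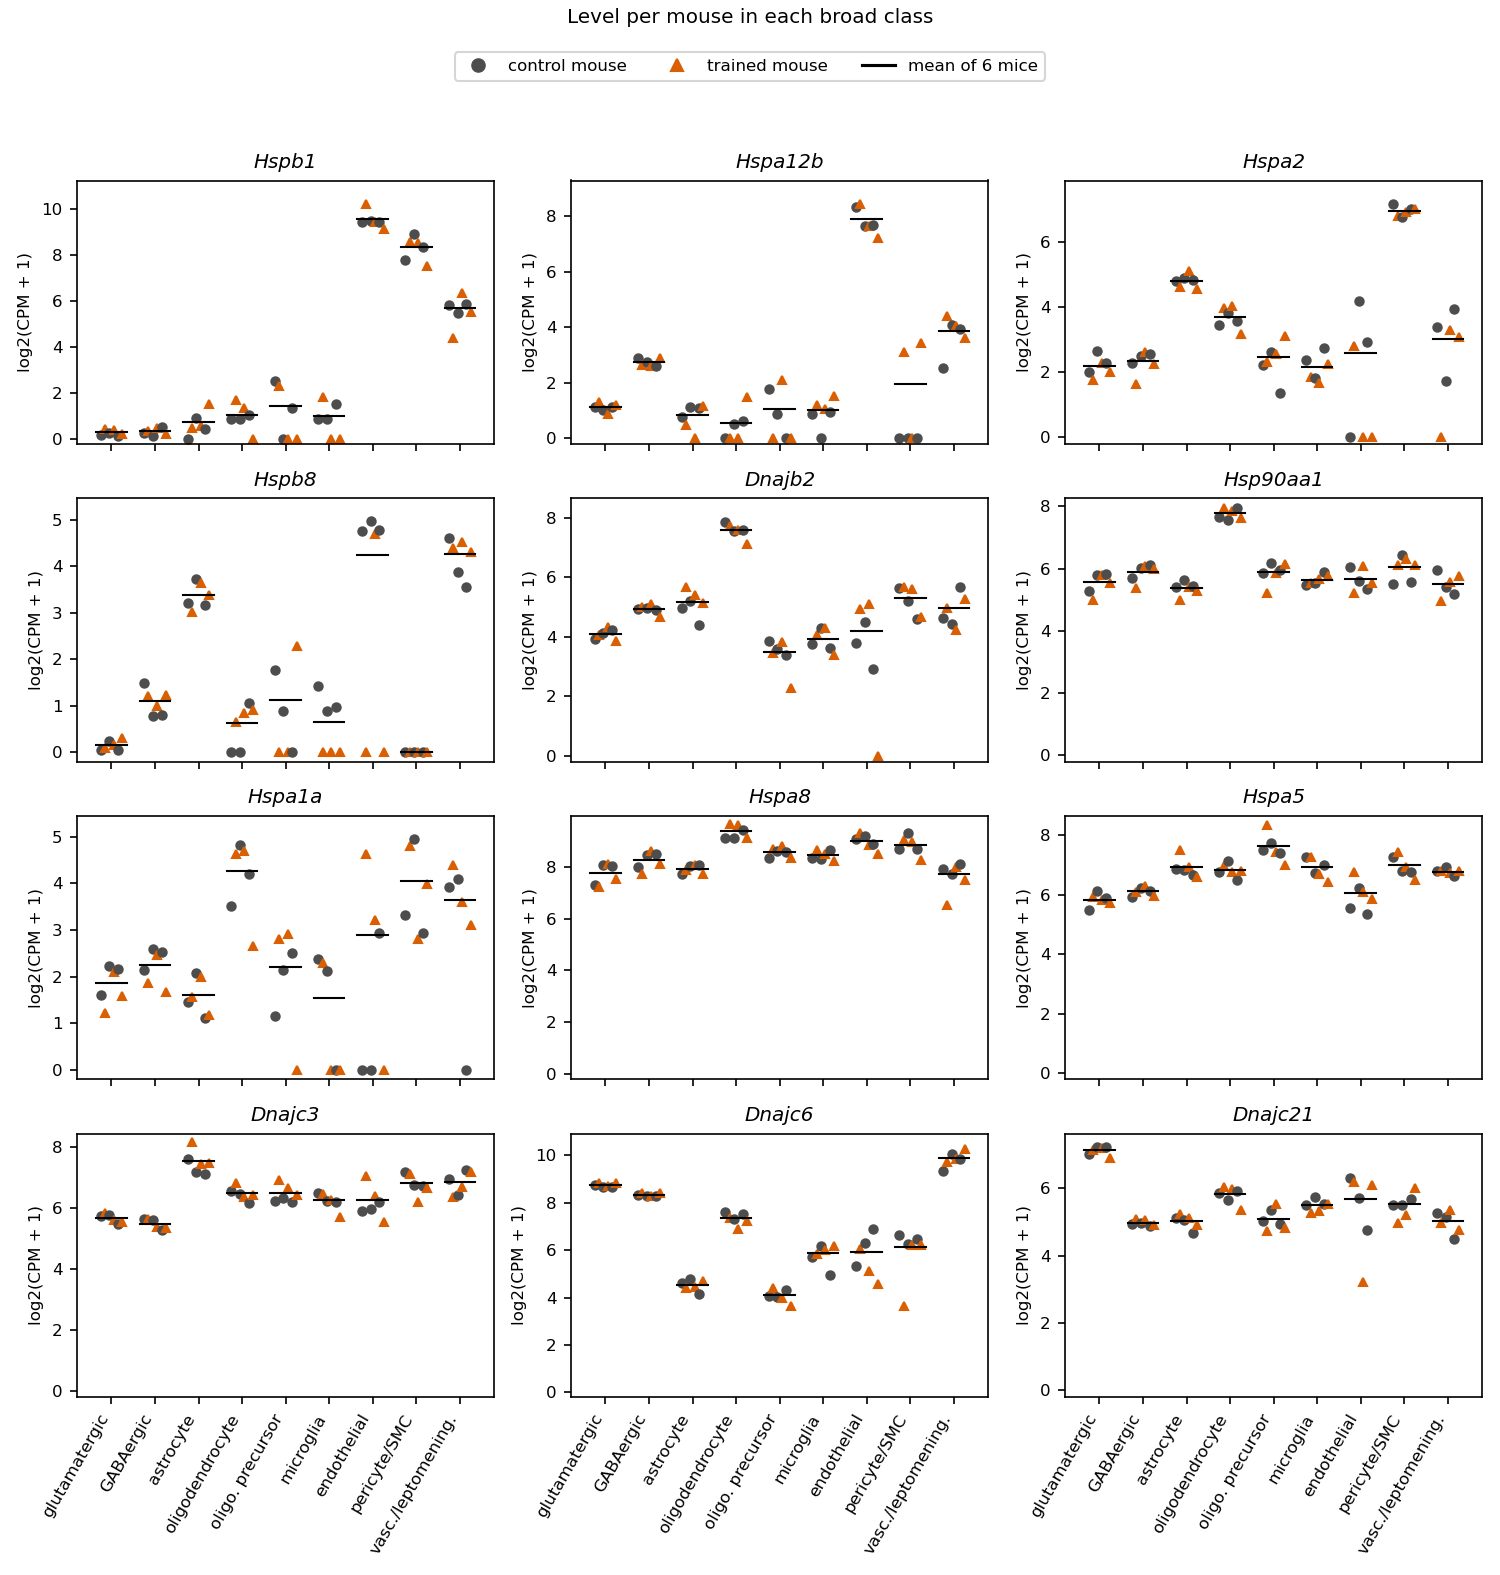
Level of 12 chaperone genes, log2(CPM + 1), in 9 broad classes, with 1 point per mouse (circles control, triangles trained) and a line at the mean of 6 mice. Hspb1 and Hspa12b peak in endothelial nuclei (means 762 and 237 CPM), Dnajb2 in oligodendrocytes (193), Hspa5 in oligodendrocyte precursors (196), and Dnajc6 falls to 16 CPM in those precursors.

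Oligodendrocytes had 12 chaperone genes higher and 4 lower than glutamatergic neurons, beside 17.0% and 20.5% of all genes, and the median log2 difference of the tested chaperones was 0.47 against -0.040 for all genes. Dnajb2 (chr1:75236406-75245692, plus strand), a J protein that hands ubiquitinated clients to the proteasome, had lowest, median and highest values of 139, 193 and 234 CPM against 13.6 to 19.2 in glutamatergic neurons (log2 difference 3.58, SE 0.0852, adjusted p = 9.84e-40). Hsp90aa1 (chr12:110690605-110702728, minus strand), the inducible cytosolic Hsp90, was 218 ± 25.8 CPM against 46.7 ± 10.3 CPM (log2 difference 2.25, SE 0.08, adjusted p = 2.73e-24). Hsp90ab1, the constitutive one, was 796 ± 162 CPM against 201 ± 29.5 CPM (log2 difference 1.98, SE 0.115, adjusted p = 5.39e-13). For all 3 genes the lowest oligodendrocyte value exceeded the highest neuronal one. Hspa8 (chr9:40800984-40810087, plus strand), the constitutive Hsp70 of the cytosol, followed with 552 to 799 against 147 to 271 CPM (log2 difference 1.64), and was also called higher in endothelial nuclei (361 to 622 CPM, log2 difference 1.29, SE 0.147, adjusted p = 0.0242).

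The stress-inducible pair Hspa1a (chr17:34969190-34972156, minus strand) and Hspa1b (chr17:34956436-34959238, minus strand) was at low levels throughout but higher in oligodendrocytes. Hspa1a was 10.4, 27.1 and 17.4 CPM there in control mice 1, 3 and 5 and 23.8, 24.8 and 5.33 CPM in trained mice 2, 4 and 6, against 1.34 to 3.71 in glutamatergic neurons (log2 difference 2.77, SE 0.211, adjusted p = 6.12e-13). The spread between mice was wide, with trained mouse 6 and control mouse 1 lowest. Hspa1b followed the same pattern, at 15.1 ± 7.61 CPM against 2.11 ± 0.701 CPM (log2 difference 2.82, SE 0.194, adjusted p = 1.16e-14). Both were also called higher in pericytes and smooth muscle (log2 differences 2.63 and 2.78), and Hspa1a in vascular and leptomeningeal nuclei (1.94). The transcripts of the pair share 49.1% and 52.0% of their 91-base windows, none in the last 500 bases that 3′ capture favours, so a split of reads between them is uncertain outside that end. Dnajb1 (Hsp40), their usual partner, was higher in oligodendrocytes and endothelial nuclei (means 25.5 and 28.8 against 8.56 CPM, log2 differences 1.57 and 1.81). Dnajb12, an ER membrane J protein, and Dnajc24, which acts in diphthamide synthesis, were also higher in oligodendrocytes, by 1.23 and 1.19.

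Lists of chaperone and partner genes differed from each other in oligodendrocytes. Of a list of 10 inducible heat shock genes, all of them among the 62, 6 were higher and none lower. This list also holds the constitutive Hspa8, which was among the 6. In endothelial nuclei 3 of the 10 were higher and 2 lower, and in pericytes and smooth muscle 3 and 0. Of all genes, 17.0% were higher and 20.5% lower in oligodendrocytes, the background for the oligodendrocyte list counts here. Of 11 heat shock factors and HSF1-linked genes outside the 62, 7 were higher and none lower (median log2 difference 1.33). Those 7 were Cryab (6.29), Bag3 (5.77), Serpinh1 (3.49), Ahsa2 (1.93), the mitochondrial chaperonin genes Hspe1 (1.71) and Hspd1 (1.28), and Hsbp1 (1.33). Of 16 Hsp90 co-chaperones 5 were higher, led by Cdc37l1 (3.01) and Fkbp4 (1.97), and of 7 tested subunits of the CCT chaperonin 3 were higher, Cct5, Cct7 and Cct2 by 1.49, 1.28 and 1.14. Of 10 BAG and nucleotide exchange factors none was higher, and Bag2 was lower (-1.70). Depth also differed: the mean over mice of the median UMIs per nucleus was 1765 in oligodendrocytes against 9686 in L2/3 intratelencephalic (IT) neurons. It was 1530.5 in pericytes and smooth muscle, 1566 in microglia and macrophages and 1711 in endothelial nuclei. Those classes had 5, 2 and 6 members higher than glutamatergic neurons, against 12 in oligodendrocytes. An unnamed cluster of 416 nuclei, whose nuclei also held few UMIs, had 847 Hspa8, 540.5 Hsp90ab1 and 114 Hsp90aa1 CPM of all UMIs, but 36.6 CPM of Dnajb2. Mitochondrial RNA differed too: it was 0.0878% to 0.247% of UMIs in oligodendrocytes and 0.00909% to 0.0342% in glutamatergic neurons over the 6 mice. All 11 tested mitochondrially encoded genes were higher in oligodendrocytes (median log2 difference 2.73), as in each of the 6 other non-neuronal classes. The part of depth and of mitochondrial RNA in the oligodendrocyte values was not tested.

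Heat shock elements were looked for in the 250 bases before the RefSeq start (GRCm38.p6) of the 49 members with an entry. The element of 3 units, GAA, TTC and GAA with 2 free bases between units or its reverse complement, was found in Dnajb6 alone, beside 0.514% of all genes in the table. The shorter pair, GAA and TTC with 2 free bases between, which any 3-unit element contains and which reads the same on both strands, was found in 9 of the 49, beside 7.73% of all genes: Dnaja1, Dnaja4, Dnajb6, Dnajc27, Hspa1a, Hspa1b, Hspb1, Hspb3 and Hspb6. The windows below show the match of Dnajb6 (chr5:29735847-29735869, plus strand, 51 to 29 bases before the start) and those of the 3 inducible members with the class differences above, Hspa1a (chr17:34972248-34972265, minus strand, 109 to 92 bases before the start), Hspa1b (chr17:34959330-34959347, minus strand, 109 to 92 bases before the start) and Hspb1 (chr5:135887797-135887834, plus strand, 122 to 85 bases before the start). Capitals mark the matched elements.
Dnajb6: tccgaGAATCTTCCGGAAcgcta
Hspa1a: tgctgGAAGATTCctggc
Hspa1b: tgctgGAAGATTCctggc
Hspb1: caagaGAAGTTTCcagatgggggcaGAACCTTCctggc
The windows of Hspa1a and Hspa1b are the same, and Hspb1 has 2 matches. A match describes letters only, and nothing was read from it about binding. Dnajb6, with the longer element, was called in no class.

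Of the chaperone genes of the ER lumen, Hspa5, Hsp90b1, Dnajc3 and Dnajb9 were each called higher in 1 to 4 classes, and Dnajb11, Dnajc10 and Hspa13 in none. Oligodendrocyte precursors had 5 members higher and 5 lower, beside 13.8% and 12.1% of all genes, and astrocytes 4 and 5, beside 17.1% and 17.5%. Hspa5 (BiP; chr2:34771970-34777547, plus strand), the Hsp70 of the ER lumen, had lowest, median and highest values of 128, 175 and 323 CPM in oligodendrocyte precursors against 43.2 to 67.7 in glutamatergic neurons, with no overlap (log2 difference 1.81, SE 0.109, adjusted p = 7.75e-11). Hsp90b1 (Grp94), the Hsp90 of the ER lumen, was 192 ± 28.6 CPM in the precursors (log2 difference 1.34, SE 0.11, adjusted p = 0.000986) and 188 ± 33.9 CPM in microglia and macrophages (log2 difference 1.34, SE 0.1, adjusted p = 0.000283) against 74.9 ± 8.88 CPM. The microglial call was lost with doublets kept. Dnajc3, a J protein of the ER lumen that assists Hspa5, was highest in astrocytes, with 137, 174 and 282 CPM against 43.4 to 56.3 (log2 difference 1.86, SE 0.0749, adjusted p = 5.58e-18), and was higher in vascular and leptomeningeal nuclei (log2 difference 1.24). Dnajb9 (ERdj4), which assists disposal of misfolded ER proteins, was higher in 4 classes: endothelial nuclei (1.91), astrocytes (1.61), oligodendrocyte precursors (1.55) and oligodendrocytes (1.33). Of 19 other genes of ER folding and the unfolded protein response, 5 were higher and 1 lower in the precursors, 5 and 0 in microglia and macrophages, 4 and 1 in oligodendrocytes and 2 and 1 in astrocytes, a small number of the list in each. In the precursors these were Sdf2l1 (2.25), Creld2 (1.74), Calr (1.73), Pdia6 (1.69) and P4hb (1.52), with the stress sensor Atf6 lower (-1.40).

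Of the members with a promoter entry, Hspa5, Hsp90b1 and Dnajc3 held the ER stress element, CCAAT and CCACG with 9 free bases between, on either strand, beside 0.13% of all genes in the table (35 genes). The matches lie at chr2:34772020-34772048, plus strand, 70 to 42 bases before the start for Hspa5, at chr10:86705528-86705661, minus strand, 217 to 84 bases before the start for Hsp90b1 and at chr14:118937822-118937850, plus strand, 110 to 82 bases before the start for Dnajc3. They are shown because these 3 genes are the only members with a match. Capitals mark the element.
Hspa5: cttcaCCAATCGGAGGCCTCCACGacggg
Hsp90b1: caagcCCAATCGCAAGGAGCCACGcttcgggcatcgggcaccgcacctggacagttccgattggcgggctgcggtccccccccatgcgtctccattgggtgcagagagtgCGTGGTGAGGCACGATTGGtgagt
Dnajc3: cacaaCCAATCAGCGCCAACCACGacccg
In Hsp90b1 the element occurred 2 times, the nearer match on the opposite strand. The 3 genes did not share a peak class: Hspa5 and Hsp90b1 had their highest mean in oligodendrocyte precursors and Dnajc3 in astrocytes. Dnajb9, called in 4 classes, held no match in this window.

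Microglia and macrophages had 2 higher and 6 lower members, beside 18.1% and 20.3% of all genes, and 15 higher and 3 lower without TMM. Besides Hsp90b1, the small heat shock gene Hspb3 was higher, at 15.2, 18.5 and 26.7 CPM in control and 9.17, 12.0 and 9.52 CPM in trained mice against 4.05 to 7.03 in glutamatergic neurons (log2 difference 1.43, SE 0.201, adjusted p = 0.00899). This call was lost without control mouse 5 (log2 difference 1.27, adjusted p = 0.0949), with DESeq2 (adjusted p = 0.175) and with doublets kept (adjusted p = 0.407). Hspb3 was lower than in glutamatergic neurons in astrocytes (-1.50), GABAergic neurons (-1.59) and oligodendrocyte precursors (-2.96). The GABAergic call was lost without TMM and with DESeq2.

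The 3 J protein genes with the most calls below glutamatergic neurons were Dnajc21 and Dnajb5, each in 8 classes, and Dnajc6 in 6. Dnajc6 (chr4:101496648-101642799, plus strand), auxilin, had lowest, median and highest values of 399, 423 and 454 CPM there, and 81.9% of its UMIs lay in those neurons, which held 74.2% of all UMIs. It was 11.6 to 19.9 CPM in oligodendrocyte precursors (log2 difference -4.71, SE 0.203, adjusted p = 3.19e-26) and 16.9 to 26.3 CPM in astrocytes (log2 difference -4.27, SE 0.154, adjusted p = 4.15e-31). In microglia and macrophages, endothelial nuclei, pericytes and smooth muscle, and oligodendrocytes the log2 differences were -2.92, -2.73, -2.62 and -1.39. The oligodendrocyte call of Dnajc6 was lost without TMM and with doublets kept. GABAergic neurons, at 322 ± 14.5 CPM, were below glutamatergic neurons in every mouse but within the minimum fold. Vascular and leptomeningeal nuclei were the exception: Dnajc6 was 638, 1076 and 923 CPM in control and 836, 914 and 1221 CPM in trained mice, above every neuronal value. That difference of 1.14 (SE 0.129) did not pass the test against a minimum fold of 2 (adjusted p = 0.136). Slc17a7 was 39.0 to 117 CPM of all UMIs in these nuclei, below the neuronal range.

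Dnajc21 (chr15:10446756-10470516, minus strand), which acts in ribosome assembly, and Dnajb5 were called lower in all 8 classes. GABAergic neurons had 4 members lower, these among them, and 2 higher, beside 7.02% and 6.32% of all genes. Dnajc21 had lowest, median and highest values of 119, 144 and 149 CPM in glutamatergic neurons and means of 30.6 (GABAergic) to 55.6 CPM (oligodendrocytes) elsewhere, with 90.2% of its UMIs in glutamatergic neurons. In GABAergic neurons its log2 difference was -2.19 (SE 0.069, adjusted p = 1.72e-25). Dnajb5, a cytosolic partner of Hsp70, had 40.4, 51.9 and 65.2 CPM in glutamatergic neurons and means of 6.71 (endothelial) to 14.5 CPM (astrocytes) elsewhere, and differed by -2.0 in GABAergic neurons (SE 0.078, adjusted p = 5.66e-19). For both genes the glutamatergic values lay above those of all other classes. The calls of both in pericytes and smooth muscle, of Dnajc21 in oligodendrocytes and of Dnajb5 in vascular and leptomeningeal nuclei were lost in at least 1 setting, without TMM in each case. Without TMM the 3 lower members of microglia and macrophages were Dnajc6, Hspa4l and Hspa12a, so both calls were lost there too. In endothelial nuclei 2 were lower then, Dnajc6 and Dnajb5, so that of Dnajc21 was lost. The Hsp70 relative Hspa12a was lower in astrocytes (5.43 ± 1.15 CPM against 42.0 ± 4.28 CPM, log2 difference -2.95, SE 0.128, adjusted p = 8.92e-22), microglia and macrophages (-2.34), oligodendrocyte precursors (-2.26) and oligodendrocytes (-1.85), whereas pericytes and smooth muscle had 65.8 CPM. The oligodendrocyte call of Hspa12a was lost with doublets kept. Hspa4l, an Hsp110 type exchange factor, was lower in endothelial nuclei (-2.03), microglia and macrophages (-1.98) and vascular and leptomeningeal nuclei (-1.43). Its endothelial call was lost without TMM and with doublets kept, and the vascular and leptomeningeal call also with DESeq2. Dnajc1, a J protein of the ER membrane, was lower in GABAergic neurons (-1.21), a call lost without TMM and with DESeq2.

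The other 30 tested members passed the minimum fold in no class. They included all 4 Dnaja genes, Hsph1 (Hsp110), the mitochondrial Hsp70 gene Hspa9, Hspa4, Hspa13, Hspa14 and Dnajc5. Dnajc5 ran from 67.7 CPM in oligodendrocyte precursors to 121 in microglia and macrophages, with 103 ± 2.92 CPM in glutamatergic neurons. Hspa9 ran from 38.2 in endothelial nuclei to 87.8 CPM in astrocytes. A member that did not pass may still differ by less than 2-fold. With no minimum fold, 162 of 456 member pairs were called higher and 148 lower. Over all genes 34634 and 37413 of 106328 pairs were called then. Dnajb3, Dnajc5b, Dnajc28, Hspa1l and Hspb6 had too few counts for this test.

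Within neurons, levels were set beside each other in 12 finer neuronal classes and 7 non-neuronal ones, TMM-scaled over these 19 and so on a slightly different scale from the values above. Hspa8 was highest among neurons in Vip interneurons (402 ± 72.9 CPM), near-projecting L5/6 neurons (349 ± 81.1) and corticothalamic L6 neurons (309 ± 98.3), which overlapped within their spread, and lowest in L2/3 IT (146 ± 34.3) and extratelencephalic L5 neurons (104 ± 27.6). Hsp90ab1 followed the same order, from 332 ± 47.4 and 327 ± 48.8 CPM to 90.9 ± 17.1. Hspa5 was highest among neurons in L6 CT (86.3 ± 17.5) and lowest in L5 ET (33.7 ± 7.08). Hspa1b stood apart in L2/3 IT neurons, at 5.92 ± 1.83 CPM with a range of 4.35 to 8.69 over the 6 mice, against 0.936 ± 0.511 in L4/5 IT and 0.865 ± 0.302 in L6 CT. Hspa9, by contrast, lay between 52.6 ± 4.68 and 85.0 ± 5.45 CPM in every neuronal class. Across the 19 class means the members whose pattern was most like that of Hspa8 were Hsp90ab1, Dnajc9, Hsp90aa1 and Dnajc30 (Spearman 0.965, 0.872, 0.847 and 0.839), and Dnajb4 was least like it (-0.704). The class means share their libraries, and Hspa8 had a Spearman of -0.756 and Dnajb4 of 0.904 with the classes' median UMIs, so these are descriptions without a test.

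Training was compared in the same genes. Sums per mouse of 3 trained and 3 control animals were tested by edgeR (quasi-likelihood, Benjamini-Hochberg over all genes of each fit) in 22 fits: 19 classes, all glutamatergic and all GABAergic neurons, and all nuclei. None of 1045 member tests was called, beside 0.0112% of the 249798 tests over all genes. At an unadjusted p under 0.05 there were 25 member tests, 2.39% of them, against 3.66% over all genes. DESeq2 also called 0, with 9 at an unadjusted p under 0.05. In the sum of all nuclei 32 of 62 members had a positive log2 ratio, and their median was 0.0084 against -0.015 for all genes. In a sum over nuclei, a change in the share of a cell type and a change in RNA per nucleus cannot be told apart.

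**Figure D3:**
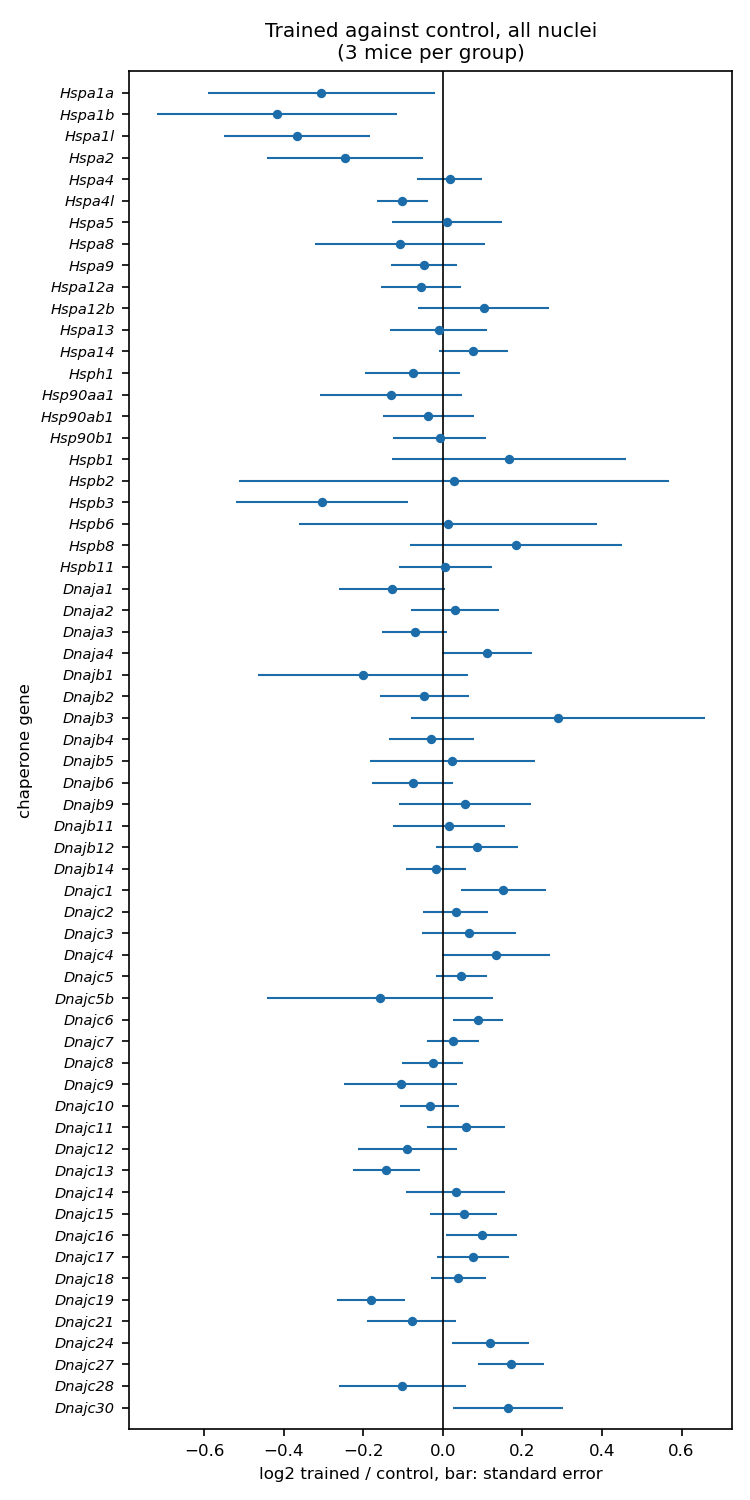
Log2 ratio of trained over control mice (3 per group) for the 62 chaperone genes in the sum of all nuclei, with bars of 1 standard error, by family. Ratios scatter on both sides of 0 (32 of 62 positive), and no gene passed the test.

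Of the 10 members on the inducible list, which also holds the constitutive Hspa8, only Hspa4l had control and trained groups that did not overlap in the sum of all nuclei. Hspa1a was 2.05, 4.03 and 3.28 CPM in control mice 1, 3 and 5 and 2.20, 3.31 and 2.01 in trained mice 2, 4 and 6 over all nuclei (log2 ratio -0.31, SE 0.285). Hspa1b was 1.44, 3.21 and 2.46 against 1.70, 2.18 and 1.41 (-0.42, SE 0.302). The groups overlapped in both, with control mouse 3 highest. Hspb1 was 2.26, 4.90 and 4.43 in control and 5.47, 3.78 and 3.69 CPM in trained mice (0.17, SE 0.294), and Dnajb1 5.50, 9.71 and 8.58 against 5.26, 9.32 and 6.06 (-0.20, SE 0.264). Hspb1 was highest in trained mouse 2 and lowest in control mouse 1, and Dnajb1 had overlapping groups. Hspa8, with the most UMIs among the inducible list, was 152, 235 and 239 against 153, 249 and 179 CPM (-0.11, SE 0.214). Hsp90aa1 was 36.1, 48.9 and 51.4 against 32.1, 49.0 and 43.4 (-0.13, SE 0.178). In both genes the spread within each group was wider than the difference between them. Dnaja1, Hsph1 and Dnajb4 had ratios of -0.13 (SE 0.134), -0.076 (SE 0.118) and -0.030 (SE 0.107). Hspa4l was 69.1, 70.5 and 69.2 in control and 66.4, 65.2 and 62.8 CPM in trained mice, lower in all 3 trained mice (log2 ratio -0.10, SE 0.0638), and did not pass the test (adjusted p = 1). Of all genes, 8.43% had groups that did not overlap.

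Levels of several members on the inducible list moved with sequencing depth. Control mouse 1 and trained mice 2 and 6 had the 3 highest medians of UMIs per nucleus (6874, 6838 and 7205), and the 3 lowest Hspa8, Dnajb1 and Dnaja1 values. With the median UMIs as a covariate the log2 ratio changed sign in 8 of the 10 members on that list, Hspa8 to 0.22, and none was called. The part of depth in these values was not tested. Mitochondrial RNA was highest in trained mouse 2, at 0.0561% of UMIs against 0.0184% to 0.0290% in the others.

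**Figure D4:**
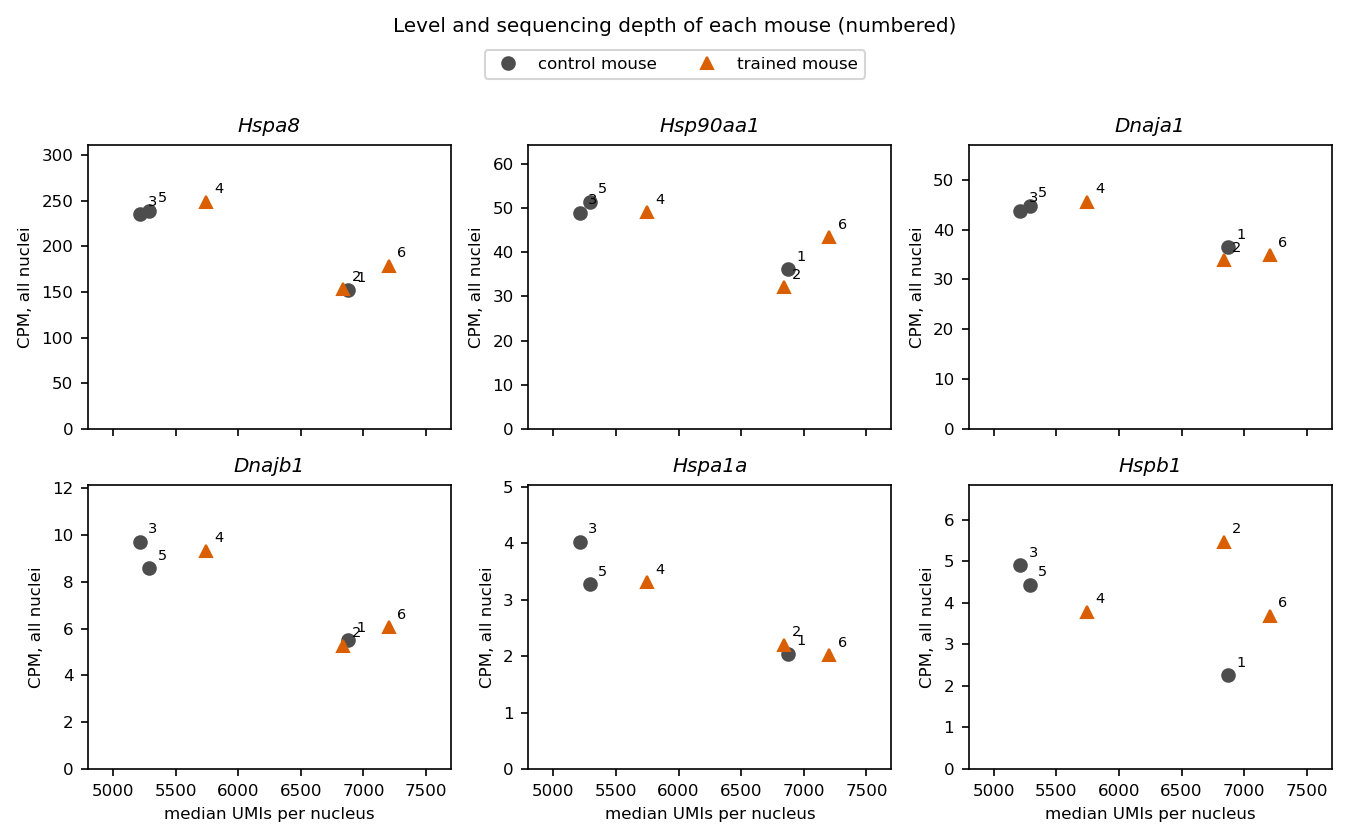
Level of 6 members on the inducible list, the constitutive Hspa8 among them, over all nuclei (CPM, vertical) against the mouse's median UMIs per nucleus (horizontal). There is 1 numbered point per mouse, circles control and triangles trained. For Hspa8 the 3 deepest mice (1, 2 and 6) lie below the other 3 whatever their group.

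Dnajc19, Dnajc27 and Hspa1l had the smallest unadjusted p over all nuclei, and none passed the test. Dnajc19, of the mitochondrial import motor, was 49.3, 41.8 and 42.7 in control and 39.7, 38.9 and 39.3 CPM in trained mice (-0.18, SE 0.0853, unadjusted p = 0.0656 by edgeR). Dnajc27, a small GTPase with a J domain, was 26.1, 28.4 and 28.4 against 33.0, 30.5 and 29.8 (0.17, SE 0.0824). Every trained mouse was on the same side of every control mouse in both genes. Hspa1l was 1.49, 1.94 and 1.65 against 1.50, 1.18 and 1.25 (-0.37, SE 0.185), Dnajc13, an endosomal J protein, 74.2, 63.1 and 74.6 against 66.6, 62.6 and 62.7 (-0.14, SE 0.085), and Dnajc1 291, 259 and 229.6 against 320.0, 266 and 280.0 (0.15, SE 0.106). The groups of Hspa1l, Dnajc13 and Dnajc1 overlapped.

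Astrocytes were the class with any gene called for training by edgeR: 0.228% of genes were called there and 0 in the other fits. Among the 51 members tested in astrocytes none was called. Of them 6 had an unadjusted p under 0.05 by edgeR. The share of all genes under that p in astrocytes is not given here, so this count does not set the members apart. Dnajb2 was 25.3, 30.1 and 16.8 CPM in control and 41.9, 35.9 and 29.0 in trained mice (log2 ratio 0.57, SE 0.209, edgeR adjusted p = 0.449). Dnajc24 was 54.7, 57.2 and 61.2 against 81.2, 66.2 and 73.3 (0.36, SE 0.137, adjusted p = 0.474), and every trained mouse lay above every control mouse. Dnajb2 had control mouse 3 above trained mouse 6. Dnajc3 was 161, 121 and 116 against 238, 147 and 148 (0.43, SE 0.184), Dnaja4 6.98, 7.89 and 5.18 against 9.90, 12.8 and 9.49 (0.67, SE 0.274), and Hspa4l 52.6, 52.7 and 51.1 against 39.9, 39.3 and 46.4 (-0.32, SE 0.142). Of these, Dnaja4 and Hspa4l had groups that did not overlap. In astrocytes this held for 7 of 51 members and for 13.8% of all genes, so the members' share was near the background. Of 19 other ER folding genes 15 had a positive ratio in astrocytes, with a median of 0.18 against -0.0088 for all genes, and none was called. Genes that were called there included the immediate early genes Nr4a2, Nr4a3 and Btg2 and the stress gene Ddit4.

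In the other broad classes the members of smallest p did not pass the test either, at adjusted p values from 0.99 to 1. In GABAergic neurons Dnajc4 was 7.40, 9.11 and 7.19 in control and 11.6, 11.2 and 10.2 CPM in trained mice (0.48, SE 0.166), and Dnajc9, a histone chaperone, had a ratio of -0.34. In glutamatergic neurons Hspa1l had -0.37 and Dnajc13 -0.16. In microglia and macrophages Dnajb12 was 45.8, 37.2 and 44.3 against 84.3, 62.1 and 48.1 (0.63, SE 0.234) and Hspb3 had a ratio of -0.91. Trained mice lay above control mice in Dnajc4 and Dnajb12. In oligodendrocytes Dnajc6 was 179.9, 153 and 178 against 152, 112 and 146 (-0.31, SE 0.15) and Dnajc19 103, 105 and 99.4 against 94.5, 77.4 and 87.4 (-0.24, SE 0.143). In their precursors Dnajc3 was 75.2, 79.5 and 73.3 against 124, 102 and 88.3 (0.48, SE 0.197), and Dnajc11 had a ratio of -0.86. For Dnajc6, Dnajc19 and the precursors' Dnajc3 the groups did not overlap. Over all genes, groups did not overlap in 7.85% in GABAergic neurons, 9.34% in microglia and macrophages, 9.88% in oligodendrocytes and 9.33% in the precursors. Of the members, 3 of 55, 5 of 46, 4 of 52 and 3 of 39 did not overlap in these classes.

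Vascular classes had few nuclei and wide errors. In pericytes and smooth muscle Dnajc13 was 108, 87.7 and 96.2 in control and 51.8, 60.2 and 62.5 CPM in trained mice (-0.74, SE 0.307), and Dnajc6 had a ratio of -0.75 (SE 0.47), which turned to 0.071 with the mitochondrial percentage as a covariate. In vascular and leptomeningeal nuclei Hspa9 was 130.5, 117 and 89.3 against 74.3, 83.9 and 70.6 (-0.51, SE 0.288) and Dnajb14 had -0.61. The groups of Dnajc13 and Hspa9 did not overlap in these classes, where 9.10% and 10.4% of all genes and 2 of 29 and 1 of 28 members did not. In endothelial nuclei Dnaja2 had -0.76 (SE 0.436) and Dnajc10, an ER disulfide reductase, 0.68 (SE 0.394). Hspb1, at its peak there, had a ratio of 0.31 (SE 0.268).

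Whether training acted differently in a class than in glutamatergic neurons was tested by the interaction term. None of 456 member tests was called, beside 0.106% over all genes with 0.743% in astrocytes, 0.0631% in microglia and macrophages, 0.0350% in endothelial nuclei, 0.00701% in oligodendrocytes and 0 elsewhere. At an unadjusted p under 0.05 there were 19 member tests. Per class these were 0 to 6 of 57 members, beside 340 to 1105 of 14269 genes. The smallest p belonged to Dnajc3 in astrocytes, whose ratio exceeded that of glutamatergic neurons by 0.41 (SE 0.133, edgeR adjusted p = 0.203). Dnajb2 in astrocytes followed at 0.55 (SE 0.198, adjusted p = 0.298).

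Counts per nucleus gave a second view of the inducible members. After thinning each nucleus to 2000 UMIs, which left out 5574 control and 3448 trained nuclei with fewer, 11.5% ± 1.74 (SD, n = 3) of control nuclei and 10.4% ± 1.09 of trained nuclei held a UMI of Hspa1a, Hspa1b, Dnajb1, Hsph1 or Hspb1. Unthinned, the shares were 30.4% ± 1.31 and 30.1% ± 1.32. In thinned oligodendrocytes they were 25.3% ± 6.36 and 23.5% ± 4.31. The median UMIs of oligodendrocytes were 1567 to 1990 over the 6 mice, so thinning left out most of them. The thinned oligodendrocyte shares here therefore describe only the deeper nuclei of that class. In glutamatergic neurons the medians were 8246.5 to 11127. A UMI of Hspa1a or Hspa1b was seen in 5.68% ± 2.99 of control and 5.08% ± 3.31 of trained oligodendrocytes, against 0.97% ± 0.127 and 0.659% ± 0.127 of glutamatergic neurons. Slc17a7, which oligodendrocytes should lack, was seen in 13.7% ± 1.60 and 12.8% ± 2.77 of oligodendrocytes and in 42.2% ± 3.58 and 40.0% ± 4.19 of glutamatergic neurons at the same depth. The mean Hspa1 shares of oligodendrocytes lay above those of glutamatergic neurons. The mean Slc17a7 shares of oligodendrocytes lay below those of glutamatergic neurons. The part of neuronal RNA in these shares was not tested. Hspb1 was seen in 61.2% ± 10.7 and 69.6% ± 5.27 of endothelial nuclei (68 and 44 nuclei), 30.8% ± 8.32 and 26.9% ± 5.41 of pericytes and smooth muscle, and 0.00553% ± 0.00957 and 0.0915% ± 0.0517 of glutamatergic neurons. Control and trained ranges overlapped in all nuclei and in oligodendrocytes, and the shares were not tested.

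Genes that work with the members were followed by list in the sum of all nuclei too. There 0 of 19540 genes were called, so the 0 calls in each list do not set these lists apart. The counts of positive ratios that follow were not tested and have no share over all genes beside them. Of the 10 members on the inducible list 1 had a positive ratio (median -0.12), and of 11 heat shock factors and HSF1-linked genes 5. Of 10 BAG and nucleotide exchange factors 2 were positive, of 16 Hsp90 co-chaperones 8, and of 7 tested CCT subunits 0 (median -0.065). Of 19 ER folding genes 8 were positive and of 7 clathrin and synaptic partners 3. Glucocorticoid response genes, which Hsp90 and Fkbp5 serve through the receptor, had 9 of 10 positive with a median of 0.33, and the 13 mitochondrially encoded genes were all positive with a median of 0.69. Trained mouse 2 had the highest mitochondrial share, and its part in this median was not tested.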

How the data were processed

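Single-nucleus RNA sequencing in droplets, which captures the 3′ end of transcripts, was run on nuclei of 6 mice. The authors deposited 1 matrix of raw UMI counts that joins a shallow and a deep run of each mouse, and the barcode suffix gives the mouse, per the series' design text. The reads were processed with Cell Ranger 4.0.0 and mm10, per the submitters' processing notes. Nothing in the sources used here says whether introns were counted or strand was used. Each mouse was 1 replicate, with its 2 runs together.

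Barcodes with at least 500 genes and under 5% mitochondrial UMIs were kept (51683 of 51926), and 2440 doublets called by Scrublet in scanpy 1.11.5 at an expected 6% were removed. Nuclei were clustered by Leiden (2000 variable genes without the chaperones, 30 components, 20 neighbours, resolution 1.0) and clusters were named from marker lists. Counts were summed per mouse and class with at least 20 nuclei in every mouse, and tested with edgeR 4.0.16 (TMM, filterByExpr, quasi-likelihood F-test, Benjamini-Hochberg over all genes of a fit, threshold 0.05; glmTreat with a log2 fold of 1 between classes). The script was tested on simulated data. The totals of 46798359 to 91495029 UMIs per mouse limit members near a few CPM. Alternatives were DESeq2 1.42.0, no TMM, no low-count filter, doublets kept, resolution 0.5, no minimum fold, median UMIs or mitochondrial percentage as a covariate, and each mouse left out.

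The members and gene lists were chosen with earlier results of these data known. Named genes were the inducible members, those of smallest p over all nuclei (6) and in each broad class (2), the 3 called higher and the 3 called lower of smallest p in each class, the 2 of smallest p among interactions, and 12 members followed in every class; other members with a call, and Hspa1b in L2/3 IT neurons, were named after their values were seen. Gene positions are those of the annotation for mm10, with all 62 members located, and promoters are from RefSeq GRCm38.p6.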

Additional observations from a re-analysis of the deposited data

How the results depend on the processing

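Member calls for training stayed at 0 in all 13 other settings, and those of the interaction at 0 in all 10. Calls between classes numbered 42 higher and 35 lower, and became 95 and 20 without TMM, 162 and 148 with no minimum fold, and 34 and 23 with doublets kept. Over all genes the calls were 22031 and 11522 without TMM and 34634 and 37413 with no minimum fold, each of 106328 pairs. With doublets kept they were 15008 and 11146 of 115296. Leaving out each mouse gave 37 to 44 higher and 30 to 37 lower calls. The share of nuclei with a UMI of an inducible member over all 6 mice was 10.9% at 2000 UMIs, 6.84% at 1000 and 30.3% unthinned. Named class differences kept direction in all settings run: 528 values stayed on their side of the threshold and 20 were lost. No paired analysis was possible because the groups share no mouse number.

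For 10 of 33 named genes and classes the ratio of trained over control mice turned sign in at least 1 of 13 settings (25 values in all), and the cause was not tested. With the median UMIs as a covariate the all-nuclei log2 ratios of Hspa1a, Hspa1b, Hsph1, Dnajb1, Dnaja1, Hsp90aa1, Hspa8 and Dnajb4 became 0.11, 0.034, 0.064, 0.18, 0.042, 0.084, 0.22 and 0.064. With the mitochondrial percentage as a covariate those of Hspb1, Dnajb1, Dnaja1, Hsp90aa1, Hspa8 and Dnajb4 became -0.065, 0.093, 0.0013, 0.10, 0.13 and 0.12, and Dnajc6 in pericytes and smooth muscle 0.071. Leaving out each mouse gave ranges of -0.11 to 0.40 for Hspb1, -0.16 to 0.051 for Hsph1, -0.27 to 0.024 for Hsp90aa1, -0.32 to 0.036 for Hspa8 and -0.11 to 0.073 for Dnajb4. With 3 mice per group and 291 endothelial nuclei, small differences were not detectable.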

Other observations

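A cluster of 416 nuclei with 629098 UMIs could not be named from its markers and entered no comparison between classes. The nuclei of this cluster stayed in the sum of all nuclei compared for training and in the unthinned shares over all nuclei. Its nuclei held few UMIs for their mouse, and Slc17a7 was seen in 58.4% of them. Of all UMIs of this cluster, Hspa8 had 847 CPM, Hsp90ab1 540.5, Dnajc6 179.6, Hspa5 170.1, Hsp90b1 151 and Dnajb5 81.1. Hspa1a and Hspa1b had 20.7 and 11.1 CPM, from 13 and 7 UMIs.

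Outside the chaperones, genes of the stress hormone response also differed by class: 8 of 10 glucocorticoid response genes were higher in oligodendrocytes than in glutamatergic neurons and 0 lower, by edgeR. Pdk4, a kinase that spares glucose, was higher by 7.47 there, Ddit4, an inhibitor of mTOR signalling, by 5.25, and Fkbp5, an Hsp90 co-chaperone of the glucocorticoid receptor, by 1.86. Fkbp5 was also higher in microglia and macrophages, by 3.39.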
